A study of Capsella grandiflora and Capsella rubella with 18 samples.

Results

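The genes described here lie on small scaffolds of the Capsella rubella genome, pieces of assembled sequence that are not part of the 8 large scaffolds. A gene row was taken as a member where its coordinates named any scaffold other than scaffold 1 to scaffold 8. No expression value entered that choice. It gave 204 of 19350 rows, on 84 scaffolds numbered from 9 to 549, and left 19146 rows on the main scaffolds. Libraries of polyadenylated RNA came from flower buds of mixed stages, of 4 C. rubella plants, which are self-compatible, and of 4 C. grandiflora plants, which outcross. Maturing leaves of 10 C. grandiflora plants served as a reference tissue. All plants were grown in a greenhouse. Most C. grandiflora plants came from wild-collected seed, and 1 bud and 1 leaf library came from an F1 between plants from Corfu. One C. rubella line had been inbred in the greenhouse. Each plant gave 1 library, and no C. rubella leaf was used here. The labels do not say that the plants of a group were raised apart, so p-values measure the spread between these libraries, which may be partly technical.

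A genome assembly leaves sequence unplaced where repeats, recent duplicates or heterochromatin prevent it from being joined to a chromosome. Genes in such sequence often have near-identical copies, and reads from copies cannot be assigned to 1 of them with certainty. Small scaffolds are also where fragments of genes, and genes present in some plants of a species but not in others, tend to collect. The files pair gene IDs with no names, so members are given by ID and position on the C. rubella v1 JGI build, and no function or sequence is given. For the same reason the tissue labels could not be checked against marker genes.

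The members were scattered in short runs. A single member stood on 52 of the 84 scaffolds, and 11 scaffolds with 5 or more members held 102 of them. The largest group was on scaffold 15 with 24 rows, followed by 12 rows each on scaffolds 13 and 43 and 10 on scaffold 24. Members of 1 scaffold are neighbours and not independent observations. The annotated span of a member, from first to last base with introns, had a median of 1849 bp, against 2517 bp for rows on the main scaffolds. Another row had the same coordinates in 10 members (4.9%), against 13.0% of main scaffold rows.

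Levels are in FPKM as deposited, in which fragments are scaled by the length of the transcript and the size of the library. Sums of FPKM were 576700 to 625900 in C. rubella buds, 589700 to 657100 in C. grandiflora buds and 1308000 to 1858000 in leaf, and the read depth behind them is unknown. Bud columns are rounded to 2 decimals and leaf columns are not, so tissue and the making of the columns cannot be told apart. The columns C. rubella bud 1 and C. grandiflora bud 1 hold 0.5 where other columns hold 0, in 44 and 24 members. Shares listed at 0 are therefore given for the other 3 bud libraries of each species.

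Members were expressed at lower levels than main scaffold rows in every library. Their median was 3.9 ± 0.298 FPKM in C. rubella buds, 3.46 ± 0.571 FPKM in C. grandiflora buds (SD, n = 4 each) and 2.29 ± 0.561 FPKM in leaf (SD, n = 10). Rows on the main scaffolds had medians of 10.9 ± 0.222 FPKM, 10.6 ± 0.216 FPKM and 9.55 ± 1.27 FPKM in the same libraries. Taken scaffold by scaffold, the median of the bud means lay between 9.63 FPKM (scaffold 2) and 12.5 FPKM (scaffold 3) on the main scaffolds, above the 4.34 FPKM of the members. The upper end of the range was closer. Over the bud libraries 15 members averaged 100 FPKM or more (7.35%), against 5.48% of main scaffold rows. Over the leaf libraries 15 members did so (7.35%), against 9.19%.

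**Figure D1:**
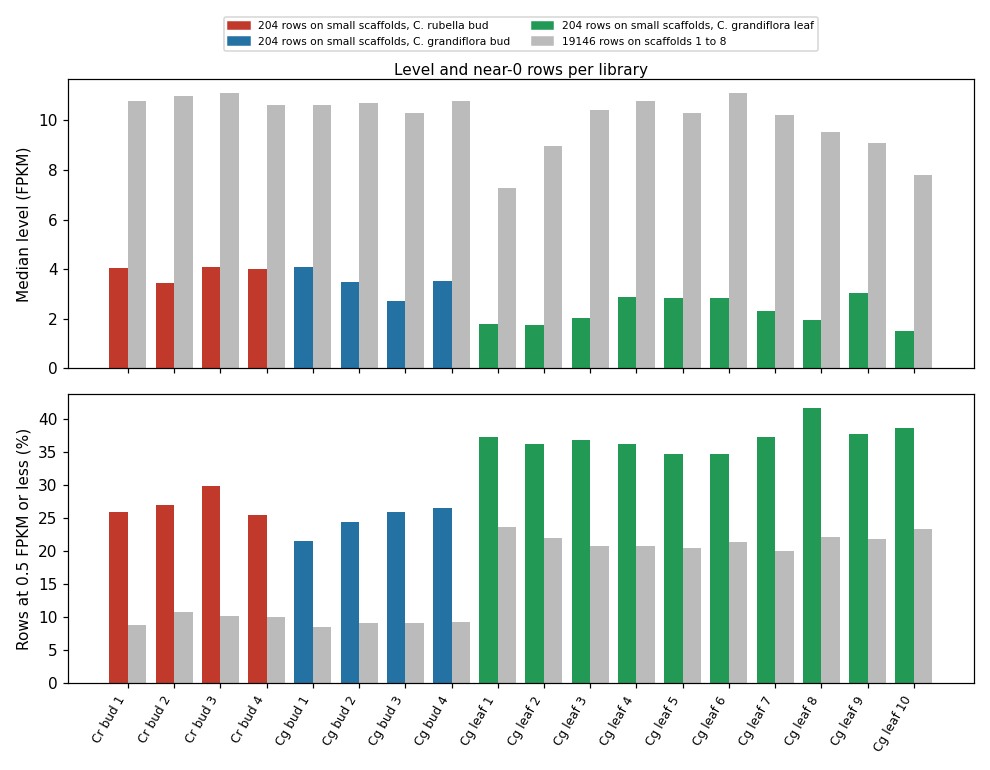
Median FPKM (upper panel) and the percentage of rows at 0.5 FPKM or less (lower panel) in each of the 18 libraries. Coloured bars are the 204 rows on small scaffolds and grey bars the 19146 rows on scaffolds 1 to 8; in all 18 libraries the coloured bar is lower in the upper panel and higher in the lower panel.

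Rows near 0 were correspondingly frequent. Members listed at 0 made up 18.1% to 21.6% in C. rubella buds, 13.7% to 19.6% in C. grandiflora buds and 24.5% to 30.4% in leaf. Among main scaffold rows the same shares were 6.71% to 7.74%, 5.26% to 6.32% and 12.2% to 15.2%. In all 18 libraries 16 members (7.84%) stayed at 0.5 FPKM or less, against 1.55% of main scaffold rows. At the other end, 78 members (38.2%) reached 1 FPKM in all 18 libraries, against 62.4%. At 0 in each of the 10 leaf libraries were 29 members (14.2%), against 6.12%. Of these 29, 22 averaged below 1 FPKM in buds as well, and 5 averaged 5 FPKM or more. The share of members listed at 0 in buds was 19.4% ± 1.89 in C. rubella and 16.3% ± 3.0 in C. grandiflora (SD, n = 3 each), and the ranges overlap.

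The species were compared with limma on log2(FPKM + 1) over the 8 bud libraries, and such a difference is too small for low genes. A row was tested where at least 4 libraries reached 1 FPKM, and a call is an adjusted p below 0.05 over all rows tested. Of the 204 members, 137 (67.2%) were tested, against 87.7% of main scaffold rows, and the other 67 have no call. Between the species 33 of 137 members were called (24.1%), beside 23.9% of all 16923 rows tested. In a single fit of all 18 libraries the shares were 13.3% of members and 8.47% of all rows, and without the libraries that hold 0.5 they were 17.9% and 13.8%. In C. rubella buds 15 of the 33 were higher (10.9%, beside 11.9% of all rows tested) and 18 lower (13.1%, beside 12%). Some of the 33 passed the filter only through the species where they are high, so these counts are a description. The 33 stood on 20 scaffolds, and none was among the 13 tested rows of scaffold 15, the largest. No overlap between the species' libraries was seen in 37 members (27%), beside 28.1% of all rows tested.

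The differences were larger than on the main scaffolds, and so was the spread between libraries. Called differences of at least 2-fold were found in 22 of the 137 members (16.1%), 10 higher and 12 lower in C. rubella, beside 6.55% of all rows tested. The 10 include 4 rows of scaffold 26 that form pairs with near-identical values, described below. Others of the 22 passed the filter only through the species where they are high, so this count is a description. Among tested members the median absolute difference was 0.36 on the log2 scale and the median residual SD 0.30, against 0.25 and 0.20 on the main scaffolds. Among rows averaging 20 FPKM or more in buds, 45 members had a median absolute difference of 0.34 and a residual SD of 0.34, against 0.23 and 0.18 for 5974 main scaffold rows. In that range 9 of the 45 members and 1494 of the 5974 main scaffold rows were called. No test of these contrasts across genes was made.

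**Figure D2:**
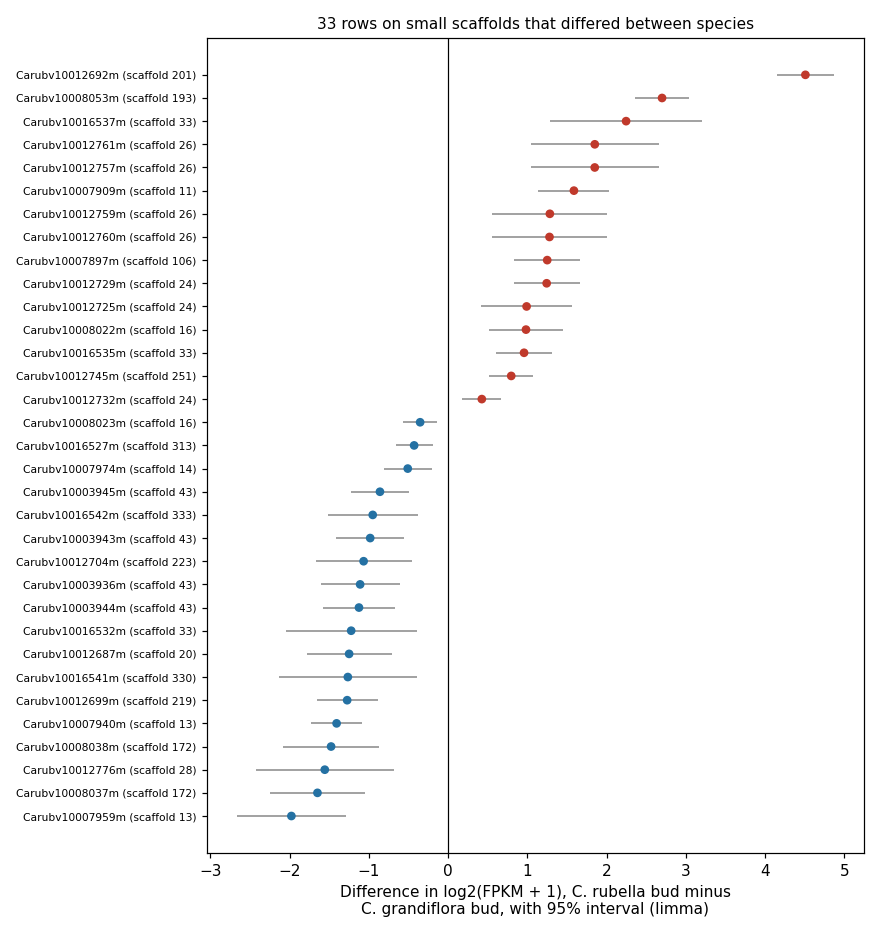
Difference in log2(FPKM + 1), C. rubella bud minus C. grandiflora bud, for the 33 called members, with the 95% interval from limma and the scaffold number after each ID. The 15 red points are higher and the 18 blue points lower in C. rubella. Carubv10012692m is at the top, where its point depends on the pseudocount, and Carubv10007959m is at the bottom (-1.98). Some of the 33 passed the filter only through the species where they are high, and their points and intervals are no test. Among them are Carubv10012692m, Carubv10007909m, Carubv10007897m, Carubv10008053m, Carubv10016537m, Carubv10003944m, Carubv10003943m and Carubv10003945m.

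In 3 members the level was near 0 in all C. grandiflora buds and 1 FPKM or more in all C. rubella buds, 1.47% of members against 0.136% of main scaffold rows. No member showed the opposite pattern, against 0.183% of main scaffold rows. Carubv10012692m (scaffold 201, 59 to 1355) measured 22.8, 22.6, 26.4 and 25.2 FPKM in the C. rubella buds. In C. grandiflora buds it stood at 0.5 in the library that holds 0.5 in place of 0 and was listed at 0 in the other 3, and every leaf library had it at 0. The C. rubella libraries lay close together and far above every C. grandiflora library. Such a row passed the filter on low values only through the group where it is high, and its fitted difference depends on the pseudocount, so its values are given as a description, with no fold and no test.

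The other members of this kind were much lower and are described in the same way. Carubv10007909m (scaffold 11, 23731 to 27526) measured 2.44, 1.82, 2.9 and 2.24 FPKM in C. rubella buds, against the same 0.5 and 0 in C. grandiflora buds. Every leaf library had it at 0. Carubv10007897m (scaffold 106, 8036 to 10279) measured 1.05, 1.47, 2.08 and 1.49 FPKM in C. rubella buds, and 0.21, 0, 0 and 0 FPKM in C. grandiflora buds. In both rows the C. rubella libraries lay above all C. grandiflora libraries, at levels where the limit of detection is unknown.

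Carubv10008053m (scaffold 193, 5123 to 5540) was expressed in both species. It measured 12.7, 11, 11.2 and 15.3 FPKM in C. rubella buds, against 1.12, 1.0, 0.75 and 1.47 FPKM in C. grandiflora buds. The groups did not overlap. Fewer than 4 C. grandiflora buds reached 1 FPKM, so the row passed the filter only through the C. rubella buds. It is described without fold or test. Leaf values lay between 2.62 and 94.5 FPKM with a median of 9.45, above all C. grandiflora buds. Carubv10016537m (scaffold 33, 32819 to 33455) measured 9.18, 11.4, 5.33 and 27.1 FPKM in C. rubella buds, against 0.78, 1.93, 1.65 and 2.22 FPKM in C. grandiflora buds. It passed the filter in the same way and is likewise described without a test. C. rubella bud 4 stood well above the others.

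On scaffold 24, 3 of the 10 rows were called, beside 23.9% of all rows tested, and these 3 were higher in C. rubella. Carubv10012729m (5256 to 5663) measured 19.5, 34.4, 30.8 and 21.3 FPKM in C. rubella buds, against 9.24, 11.6, 9.83 and 10.7 FPKM in C. grandiflora buds. Its difference was 1.24 (SE 0.182, limma adjusted p = 0.00357). Carubv10012725m (30765 to 34706) shares its coordinates with another row, and whether the 2 rows split its reads was not tested. It measured 17.8, 28.9, 31.5 and 29.3 FPKM in C. rubella buds and 9.32, 15.6, 9.63 and 18.4 FPKM in C. grandiflora buds. The ranges overlap slightly, and its call (0.99, SE 0.254, limma adjusted p = 0.025) was lost without C. grandiflora bud 1 (adjusted p = 0.0593) and without C. rubella bud 2, 3 or 4 (adjusted p = 0.0596 to 0.0626).

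Among the members that fell in C. rubella, the most abundant were also bud-specific. Carubv10007959m (scaffold 13, 128289 to 131825) measured 152, 186, 140 and 70.9 FPKM in C. rubella buds, against 556, 578, 355 and 608 FPKM in C. grandiflora buds. In C. rubella it fell by 1.98 log2 units (SE 0.301, limma adjusted p = 0.00411), and leaf libraries had it at 0 throughout. Carubv10016541m (scaffold 330, 1753 to 3408), the member with the highest mean over the buds, measured 780, 1237, 936 and 401 FPKM in C. rubella buds, against 3148, 1884, 1370 and 1490 FPKM in C. grandiflora buds. The libraries did not overlap and the row fell by 1.26 (SE 0.381, limma adjusted p = 0.0434). Leaving out any 1 of 6 of the 8 libraries, all but C. rubella bud 2 and C. grandiflora bud 3, ended that call, with adjusted p between 0.064 and 0.0912. In bulk tissue, fewer cells of a type and less RNA per cell cannot be told apart.

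Both rows of scaffold 172 fell together. Carubv10008037m (145 to 2349) measured 4.36, 7.29, 8.71 and 4.22 FPKM in C. rubella buds, against 23.8, 22, 13.2 and 25.8 FPKM in C. grandiflora buds. Its neighbour Carubv10008038m (2757 to 7035) measured 7.5, 11, 13.8 and 6.36 FPKM in C. rubella buds, against 36.7, 25, 19.4 and 32.5 FPKM in C. grandiflora buds. The differences were -1.65 (SE 0.265, limma adjusted p = 0.00496) and -1.48 (SE 0.263, limma adjusted p = 0.00702). In C. rubella, buds 2 and 3 were the higher ones for both rows, and in C. grandiflora bud 3 was the lowest for both. The ratio of the first row to the second lay between 0.581 and 0.664 in C. rubella buds and between 0.649 and 0.88 in C. grandiflora buds. Leaf libraries had both rows at 0 throughout.

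Further members named among the decreases stood on other scaffolds. Carubv10012687m (scaffold 20, 27961 to 29562) measured 19.5, 18.4, 18.3 and 9.39 FPKM in C. rubella buds, against 43.6, 42.1, 28.9 and 43.1 FPKM in C. grandiflora buds, and fell by 1.25 (SE 0.235, limma adjusted p = 0.00838). Carubv10012776m (scaffold 28, 2457 to 5764) measured 5.44, 6.03, 9.77 and 2.16 FPKM in C. rubella buds, against 24.9, 13.4, 22.7 and 12 FPKM in C. grandiflora buds, and fell by 1.56 (SE 0.38, limma adjusted p = 0.0213). Without C. grandiflora bud 1 its adjusted p was 0.0535. Carubv10016532m (scaffold 33, 25551 to 25925) measured 1.32, 2.48, 6.27 and 3.63 FPKM in C. rubella buds and 7.21, 8.25, 14.0 and 6.08 FPKM in C. grandiflora buds. Its groups overlap, and its call (-1.22, SE 0.361, limma adjusted p = 0.0407) was lost on leaving out any library but C. rubella bud 3, with adjusted p between 0.0538 and 0.0939.

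Scaffold 43 carried a run of low rows that were lower in C. rubella. All 12 rows had a lower mean in C. rubella buds. In 8 of them no library of one species reached the other's range, beside 28.1% of all rows tested. Some of these 8 were too low to test, and the run was picked after its values were seen. Only 5 rows were abundant enough to be tested, and 4 of them were called lower in C. rubella, beside 12% of all rows tested. Of these 4, 3 passed the filter only through the C. grandiflora buds, so the count supports nothing further. Carubv10003936m (8946 to 11327) measured 4.27, 4.51, 3.76 and 4.64 FPKM in C. rubella buds, against 14.0, 6.08, 12 and 11.3 FPKM in C. grandiflora buds. The species differed by -1.11 (SE 0.218, limma adjusted p = 0.00959), and without the libraries that hold 0.5 in place of 0 the adjusted p was 0.0511.

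The other called rows of scaffold 43 were Carubv10003944m, Carubv10003943m and Carubv10003945m. Each stood below 1 FPKM in every C. rubella bud, against 1.45 to 4.17 FPKM in C. grandiflora buds. They are the 3 that the C. grandiflora buds alone brought past the filter. A further 4 rows that were too low to test were listed at 0 in the 3 C. rubella buds whose columns hold 0, and stood above 0 in all 4 C. grandiflora buds. The exception at the start of the run was Carubv10003938m (1858 to 4110), with 5.66, 8.47, 8.59 and 8.01 FPKM in C. rubella buds and 7.48, 8.41, 8.56 and 8.08 FPKM in C. grandiflora buds. Its difference of -0.09 (SE 0.131) had a limma adjusted p of 0.66.

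Summed over the 12 rows, scaffold 43 gave 14.8, 15.5, 15.2 and 16.1 FPKM in C. rubella buds, against 35.9, 25.7, 34.2 and 31.4 FPKM in C. grandiflora buds. The sums of the species did not overlap. In C. grandiflora leaf they ranged from 18.2 to 54.8 FPKM, above all C. rubella buds. The rows are neighbours and may share sequence, which was not tested, so they are not 12 separate observations.

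**Figure D3:**
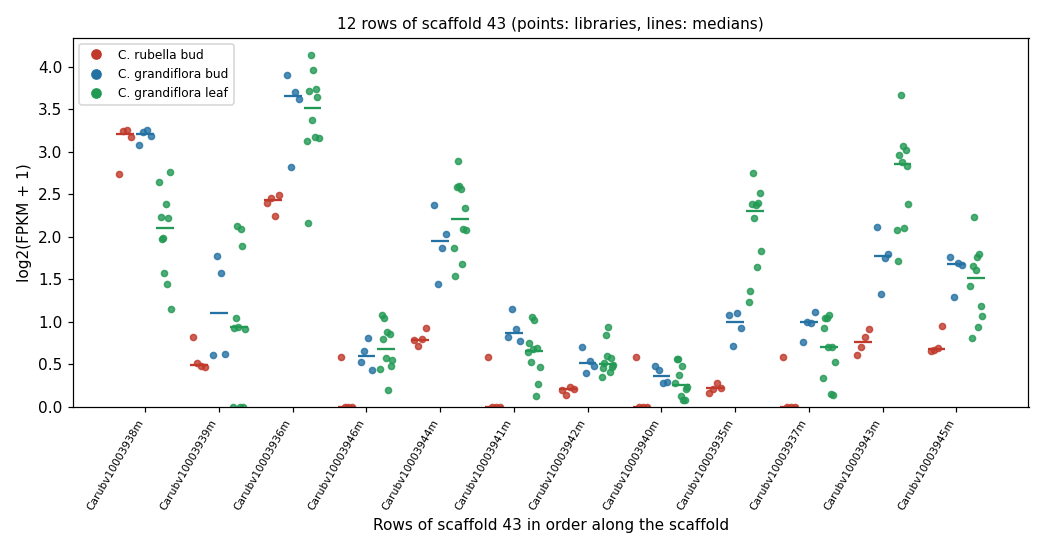
log2(FPKM + 1) of the 12 rows of scaffold 43 in their order along the scaffold; points are libraries, short lines medians, with C. rubella buds (red) left of C. grandiflora buds (blue) and leaf (green). The red points lie below the blue ones in all rows except Carubv10003938m, Carubv10003939m, Carubv10003946m and Carubv10003940m; in the 4 rows where 3 red points are at 0, the fourth is the library that holds 0.5 in place of 0.

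Scaffold 26 held the most abundant members in leaf. Both 260-bp rows, Carubv10012759m (49047 to 49306) and Carubv10012760m (82673 to 82932), and both 795-bp rows, Carubv10012761m (49344 to 50138) and Carubv10012757m (82970 to 83764), form a pattern repeated 33626 bp further along. Within each pair all 10 leaf values were identical, and bud values differed by at most 1.66% and 0.217%. Among 17119 main scaffold rows above 0 in at least 3 leaf libraries, none had the leaf values of another row. Whether reads were divided or counted alike between the rows of a pair was not tested. Each pair is best read as 1 measurement.

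In buds both kinds of row were higher in C. rubella. Carubv10012761m measured 637, 1437, 987 and 587 FPKM in C. rubella buds, against 393, 162, 259 and 188 FPKM in C. grandiflora buds. It rose by 1.85 (SE 0.354, limma adjusted p = 0.00886), and no library of one species reached the range of the other. Carubv10012759m measured 534, 908, 551 and 384 FPKM in C. rubella buds, against 366, 157, 258 and 195 FPKM in C. grandiflora buds. The species differed by 1.28 (SE 0.317, limma adjusted p = 0.0221), and without C. grandiflora bud 2 or bud 4 its adjusted p was 0.0546 and 0.0585. The longer row over the shorter gave a ratio of 1.19 to 1.79 in C. rubella buds, 0.966 to 1.07 in C. grandiflora buds and 0.0404 to 0.364 in leaf.

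In leaf the same rows reached levels far above those of buds. Carubv10012759m ranged from 3529 to 79207 FPKM with a median of 10945, and Carubv10012761m from 142 to 22727 FPKM with a median of 2840. Leaf 9 and leaf 3 were the highest for both rows, and leaf 10 was the lowest. In leaf 9 the 260-bp rows ranked first of all 19350 rows, and the 4 rows together held 11.5% of that library's FPKM sum, against 0.435% in leaf 10. Bud minus leaf in C. grandiflora, the differences were -5.74 for the 260-bp row (SE 0.676, limma adjusted p = 1.76e-06) and -3.62 for the 795-bp row (SE 0.907, limma adjusted p = 0.00232). The lowest leaf value of the 795-bp row lies below all C. grandiflora buds, so the groups overlap for it, and with the place of origin as a term its adjusted p by limma was 0.112.

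These 4 rows decide the share of members in a library's total. Members held 1.22% to 1.72% of the FPKM sum in C. rubella buds, 1.15% to 1.54% in C. grandiflora buds and 0.698% to 11.7% in leaf. Without the 4 rows the shares were 0.83% to 0.947%, 1.02% to 1.31% and 0.263% to 0.543%, lowest in leaf. That subtraction was chosen after the values were seen.

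**Figure D4:**
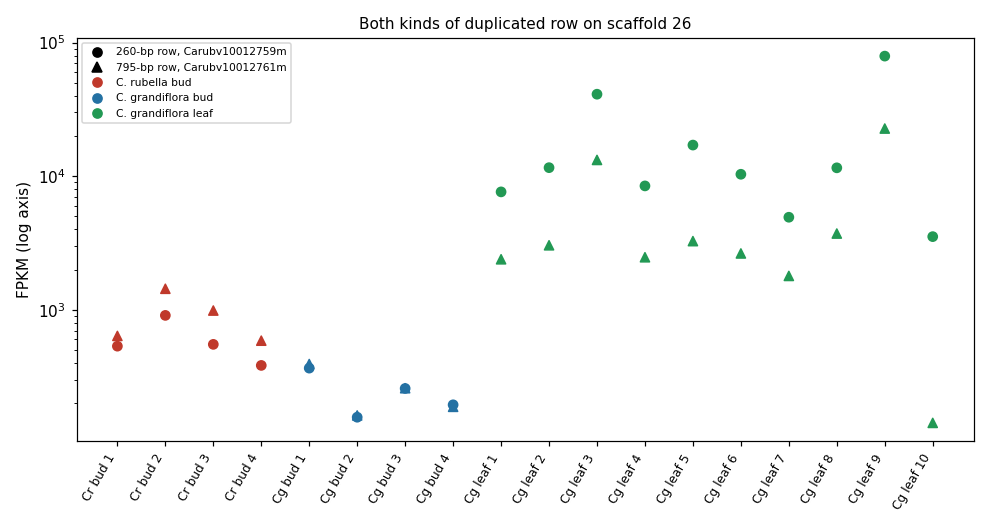
FPKM on a log axis of 1 row from each duplicated pair on scaffold 26 in the 18 libraries; circles are the 260-bp row and triangles the 795-bp row. Leaf circles lie between 3529 and 79207 FPKM, above every bud library, and the leaf 10 triangle (142 FPKM) stands apart from the other leaf triangles.

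Tissues were compared within C. grandiflora, 4 bud against 10 leaf libraries, with the same fit and filter. Of 151 tested members (74.0% of members, against 89.2% of main scaffold rows), 88 were called (58.3%), beside 69.7% of all 17229 rows tested, and on each main scaffold between 68.5% and 71.2% were. Of the 88, 51 were higher in buds (33.8%, beside 37.4% of all rows tested) and 37 lower (24.5%, beside 32.2%). Called differences of at least 2-fold made up 47.7% in members, beside 52% of all rows tested. No overlap between the tissues was seen in 51 members (33.8%), beside 50.7% of all rows tested. Over all levels together the size of the differences was alike, with a median absolute difference of 1.12 in members and 1.09 on the main scaffolds. Taken by mean level it was 1.06 against 1.36 below 5 FPKM and 0.77 against 0.84 from 5 to 20 FPKM. At 20 FPKM or more it was 1.47 in members against 1.22. The residual SD was larger, with a median of 0.53 in members and 0.41 on the main scaffolds, and it was larger at every level examined. Both the share called and the split by direction depended on scaling. After quantile normalization 76.2% of members were called, beside 74.7% of all rows tested, and after upper quartile scaling 64.9%, beside 74.3%. Quantile normalization gave 50 members higher and 65 lower in buds, and upper quartile scaling 65 higher and 33 lower.

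A few members were abundant in buds and at or near 0 in leaf. They passed the filter only through the buds, so they too are described without a test. In total 4 members reached 5 FPKM in every bud library and stayed at 0.5 FPKM or less in every leaf library (1.96%, against 1.81% of main scaffold rows). They are Carubv10016541m, Carubv10007959m and Carubv10008038m, whose bud values are given above, and Carubv10008027m (scaffold 16, 40257 to 44048). The last measured 399, 238, 89.2 and 267 FPKM in C. grandiflora buds, against 0 to 0.0742 FPKM in leaf. In C. rubella buds it stood at 169, 214, 188 and 131 FPKM, within the range of C. grandiflora buds, and the species difference was called by limma only without C. grandiflora bud 3 (-0.76, adjusted p = 0.0435). Carubv10016541m had 0 FPKM in 9 leaf libraries and 0.0443 FPKM in leaf 5.

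Of the next members, Carubv10016543m and Carubv10012781m likewise passed the filter through the buds alone. Carubv10016543m (scaffold 338, 2228 to 2752) measured 86.7, 56.9, 88.1 and 146 FPKM in C. grandiflora buds. In leaf it was listed at 0 in 8 libraries and reached 2.62 FPKM. Its C. rubella buds stood at 107, 20.6, 37.5 and 6.31 FPKM. The species difference was called by limma only without C. rubella bud 1 (-2.31, adjusted p = 0.0296). Carubv10012781m (scaffold 283, 597 to 2917) measured 7.05, 11.2, 9.66 and 12.8 FPKM in C. grandiflora buds, beside 0 in every leaf library. In C. rubella buds it stood at 9.64, 2.6, 0 and 9.79 FPKM. Carubv10008014m (scaffold 151, 4753 to 7209) measured 1105, 998, 849 and 837 FPKM in C. grandiflora buds, against 75.3 to 519 FPKM in leaf. It rose by 1.95 in buds (SE 0.409, limma adjusted p = 0.000568), and its C. rubella buds stood at 739, 667, 662 and 858 FPKM.

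No member reached 5 FPKM in all leaf libraries while staying at 0.5 FPKM or less in all buds, against 0.0888% of main scaffold rows. The neighbours Carubv10012707m (504 to 1008) and Carubv10012706m (2211 to 3224) on scaffold 224 reached high levels in most leaf libraries, and are given here after their values were seen. Carubv10012706m stood at 0.5, 0, 1.22 and 0 FPKM in C. grandiflora buds and ranged from 0 to 924 FPKM in leaf with a median of 199. Carubv10012707m stood at 0.5, 0, 0 and 0 FPKM in C. grandiflora buds and ranged from 0 to 126 FPKM in leaf with a median of 32.0. Both were listed at 0 in leaf 3 and were highest in leaf 9, so that leaf 3 alone brought the leaf range down to that of buds.

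On scaffold 20, neighbouring members stood apart between tissues in opposite directions. Carubv10012687m measured 43.6, 42.1, 28.9 and 43.1 FPKM in C. grandiflora buds, against 0 to 0.644 FPKM in leaf, and passed the filter through the buds alone. Carubv10012686m (37817 to 42588) measured 36.4, 40.1, 48.3 and 41.9 FPKM in C. grandiflora buds, against 395 to 1409 FPKM in leaf (difference -4.06, SE 0.249, limma adjusted p = 6.91e-10). Its row shares coordinates with Carubv10012688m, and whether reads are divided between them was not tested. In C. rubella buds Carubv10012686m stood at 48.6, 46.6, 48.6 and 47.4 FPKM, and its species difference of 0.20 (SE 0.0922) did not pass (limma adjusted p = 0.147). Without C. grandiflora bud 3 it did (0.27, adjusted p = 0.0395 by limma).

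Carubv10012725m, higher in C. rubella than in C. grandiflora buds, was higher still in leaf, at 116 to 235 FPKM (bud minus leaf -3.66, SE 0.213, limma adjusted p = 3.53e-10). A pair on scaffold 11, picked after its values were seen, showed how nearly 2 members can follow each other. Carubv10007902m (235869 to 237277) over Carubv10007905m (212121 to 212845) gave a ratio of 0.414 to 0.5 in C. rubella buds, 0.348 to 0.441 in C. grandiflora buds and 1.09 to 1.17 in all 10 leaf libraries. Over those leaf libraries the level of Carubv10007905m itself ran from 110 to 606 FPKM. Whether the rows share sequence was not tested.

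The top bud rows of some runs did not pass the test between species. Carubv10000014m on scaffold 55 measured 251, 249, 234 and 252 FPKM in C. rubella buds, against 238, 210, 300 and 194 FPKM in C. grandiflora buds (limma adjusted p = 0.676). It rose in C. grandiflora buds relative to leaf by 2.56 (SE 0.603, limma adjusted p = 0.00145), where leaf 4 alone reached 286 FPKM, within the bud range. Carubv10008004m on scaffold 15 averaged 89.4 ± 36.1 FPKM in C. rubella buds and 62.7 ± 15 FPKM in C. grandiflora buds (SD, n = 4 each), 0.43 apart on the log2 scale (95% interval -0.29 to 1.16, limma adjusted p = 0.349). Carubv10007976m on scaffold 14 averaged 175 ± 30.9 FPKM in C. rubella buds and 187 ± 18.3 FPKM in C. grandiflora buds (SD, n = 4 each, limma adjusted p = 0.59). It fell by 1.12 in C. grandiflora buds relative to leaf (SE 0.32, limma adjusted p = 0.00593), though leaf 1 (154 FPKM) lay below all C. grandiflora buds. After quantile normalization that difference was -0.30 (limma adjusted p = 0.365), and with the place of origin as a term the adjusted p by limma was 0.0721. Carubv10012733m on scaffold 24 averaged 50.4 ± 2.09 FPKM in C. rubella buds, 55.5 ± 2.13 FPKM in C. grandiflora buds (SD, n = 4 each) and 59 ± 10.4 FPKM in leaf (SD, n = 10). Its C. rubella libraries (47.5 to 52.1 FPKM) lay just below all C. grandiflora buds (53.8 to 58.6 FPKM), and the difference of -0.14 (95% interval -0.29 to 0.02) did not pass (limma adjusted p = 0.175).

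Members were also more often on in some plants and off in others of the same tissue. In total 10 members (4.9%) reached 5 FPKM in 2 or more leaf libraries and stayed at 0.5 FPKM or less in 2 or more, against 1.48% of main scaffold rows. Of these 10, 4 stood on scaffold 15. Over the 8 buds, with both species pooled, the same split was seen in 4 members (1.96%), against 0.736%. Carubv10012692m is among them, and its split runs between the species. These limits were set after values had been seen. The SD over leaf libraries was above 1 on the log2 scale in 38 of 204 members and in 1502 of 19146 main scaffold rows.

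On scaffold 127 neighbouring rows were low in the same plants, and only Carubv10007936m met the limits for on and off given above. Carubv10007936m (4144 to 8004) measured 18.3, 46.5, 34.8 and 16.9 FPKM in C. rubella buds, against 49.3, 24.1, 0.23 and 0.27 FPKM in C. grandiflora buds. Its neighbour Carubv10007938m (2525 to 3570) measured 6.33, 17.3, 13.9 and 7.26 FPKM in C. rubella buds, against 12.7, 6.86, 1.72 and 0.71 FPKM in C. grandiflora buds. C. grandiflora buds 3 and 4 were the low ones for both rows. In leaf, libraries 1, 3, 6 and 9 gave 14.1, 11.1, 9.59 and 9.82 FPKM for Carubv10007936m, and the other 6 gave 0.77 FPKM or less.

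The same 4 leaf libraries gave 4.53, 4.31, 3.5 and 2.96 FPKM for Carubv10007938m, and the other 6 gave 0.3 FPKM or less. The third row of the scaffold, Carubv10007937m (636 to 2149), showed no such split in leaf, at 31.5 to 70.8 FPKM. It measured 18.7, 32.0, 29.1 and 19.1 FPKM in C. rubella buds and 41.7, 21.7, 12.3 and 10.8 FPKM in C. grandiflora buds. Among the C. grandiflora buds it was lowest in buds 3 and 4, like its neighbours. In C. rubella, buds 2 and 3 were the higher ones for all rows of the scaffold.

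**Figure D5:**
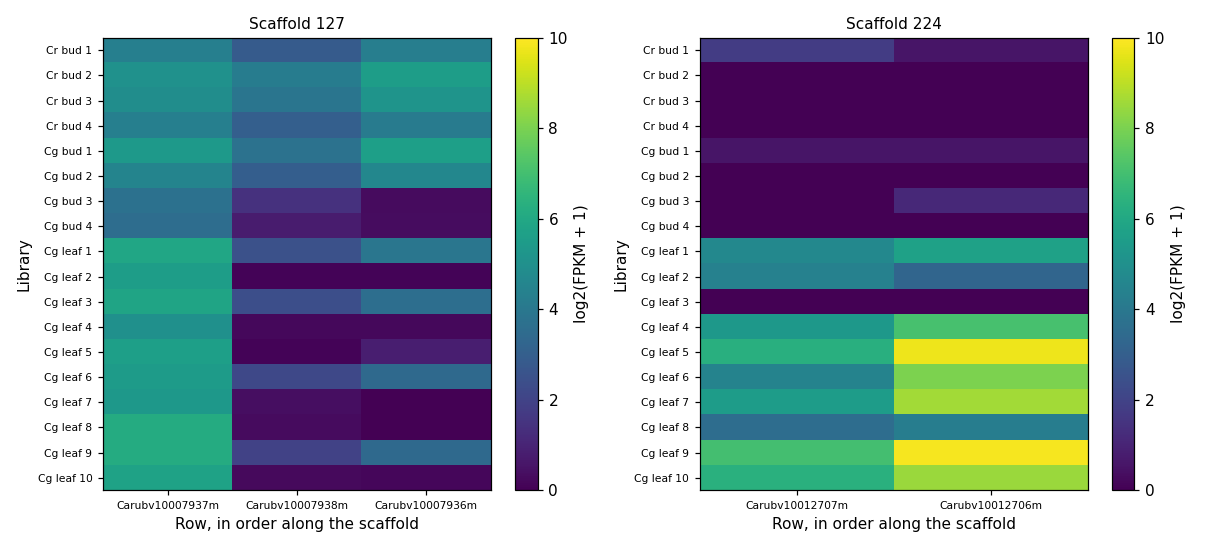
log2(FPKM + 1) in the 18 libraries (rows of each panel) for the 3 members of scaffold 127 and the 2 members of scaffold 224, in order along the scaffold. On scaffold 127 the middle and right columns have their lowest values in the same libraries (C. grandiflora buds 3 and 4 and 6 leaf libraries), and the left column is higher there. On scaffold 224 all buds and leaf 3 are dark.

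Scaffold 15 held many leaf-variable members. Of its 24 rows, 9 had an SD above 1 over the leaf libraries, and the median SD was 0.724, against 0.438 over all members and 0.416 on the main scaffolds. The 6 rows that start between 85938 and 113073 summed to 213 FPKM in leaf 5 and 124 FPKM in leaf 6, against 2.75 FPKM in leaf 3. In buds their sum was 1.9 to 4.03 FPKM in C. rubella and 5.61 to 8.6 FPKM in C. grandiflora. One of them, Carubv10008005m (111271 to 111929), reached 99.4 FPKM in leaf 5, stood at 5.9 to 13.7 FPKM in 4 others and was listed at 0 in 5. Carubv10016552m (scaffold 39, 9877 to 11386) ranged from 0 in leaf 3 and leaf 10 to 239 FPKM in leaf 2, and its difference between tissues of -2.40 (SE 1.29) did not pass (limma adjusted p = 0.109). Without leaf 3 or without leaf 10 it was -2.91, with a limma adjusted p of 0.0298 and 0.0305.

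At the other extreme of the tested members, the smallest SD over leaf belonged to rows at 0 in every leaf library, among them both rows of scaffold 172 and Carubv10000017m (scaffold 55, 12457 to 13478). Carubv10000017m measured 4.1, 12.3, 7.31 and 1.73 FPKM in C. rubella buds and 4.03, 3.46, 2.34 and 2.79 FPKM in C. grandiflora buds. Its difference between species of 0.61 (SE 0.435) did not pass (limma adjusted p = 0.337). The top bud rows of the remaining runs did not pass between species either: Carubv10007890m (scaffold 10) had a difference of 0.06 (SE 0.187) and Carubv10016534m (scaffold 33) one of -0.32 (SE 0.307). Their limma adjusted p-values were 0.828 and 0.472.

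Of the 204 members, 132 were tested in both comparisons, 5 between species only, 19 between tissues only and 48 (23.5%) in neither, against 8.64% of main scaffold rows. The 48 had a median bud mean of 0.259 FPKM, and 22 had 0 in every leaf library. Their highest value was 32.7 FPKM, in leaf 3. Of the 132, 21 (15.9%) were called in both comparisons, against 18.2% of main scaffold rows tested in both. The comparisons share the C. grandiflora bud libraries.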

How the data were processed

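Values are FPKM as the authors deposited them, 1 column per library, on the C. rubella v1 JGI build per the file headers, for both species. Bowtie, TopHat and Cufflinks were used, per the submitters' processing notes, with versions and settings not given in the sources used here. Each of the 18 columns was matched to a sample by its title, and 0 columns were left over. Read depth is unknown, so no counting interval is given.

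Both comparisons used limma 3.58.1 (R 4.3.3) on log2(FPKM + 1), with moderated variances following a trend in the mean, on rows with at least 1 FPKM in at least 4 libraries. Benjamini-Hochberg adjustment ran over all rows tested, with a threshold of 0.05. The fits were tested on simulated data. Named members were, per comparison and direction, up to 8 called members with the largest difference whose higher group averaged 5 FPKM or more. Added to these were the 5 most abundant in buds and in leaf, members on in 1 tissue or species alone, the top bud row of scaffolds with 5 or more members, and the 3 most and least variable in leaf. Others were chosen after their values were seen, among them members of scaffolds 43, 127, 15 and 11. Members and lists were chosen with earlier results of these data known. Gene lists fixed by name were not used here because no table pairs the IDs with names. Alternatives covered the pseudocount, filter, scaling, trend, libraries and rows entering the fit, and the place of origin.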

Additional observations from a re-analysis of the deposited data

Results flagged for a closer look

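In 116 sets of libraries, the highest or lowest library was compared with the rest of its group on the log2(FPKM + 1) scale or by a share. Many sets are rows named for their values, some of them duplicated rows, so a chance rate of about 1 in 20 does not apply. In 22 sets that library stood apart. Several rest on the value 0.5 in place of 0: 0.5 FPKM for Carubv10012706m in C. rubella bud 1, and for Carubv10007909m, Carubv10012692m and Carubv10012707m in C. grandiflora bud 1, while the other libraries of the group were listed at 0. Carubv10012707m reached 2.42 FPKM in C. rubella bud 1 and Carubv10007897m 0.21 FPKM in C. grandiflora bud 1, again beside 0.

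Among C. rubella buds, the median of the members was 3.45 FPKM in bud 2, against 4.0 to 4.08 in the others. Carubv10000014m stood at 234 FPKM in bud 3 (others 249 to 252), Carubv10007976m at 221 FPKM in bud 1 (others 156 to 162), Carubv10012687m at 9.39 FPKM in bud 4 (others 18.3 to 19.5) and Carubv10012725m at 17.8 FPKM in bud 1 (others 28.9 to 31.5). Among C. grandiflora buds, bud 3 was low for 3 members: Carubv10007959m at 355 FPKM (others 556 to 608), Carubv10012687m at 28.9 FPKM (others 42.1 to 43.6) and Carubv10016534m at 17.3 FPKM (others 28.9 to 30.9).

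In leaf, members other than the 4 duplicated rows held 0.543% of the FPKM sum in leaf 4, against 0.263% to 0.388% elsewhere. Carubv10012757m and Carubv10012761m, which hold identical leaf values, stood at 142 FPKM in leaf 10, against 1790 FPKM or more. Carubv10008053m reached 94.5 FPKM in leaf 7 (others 2.62 to 14.4). Carubv10003936m was at 3.49 FPKM in leaf 2 (others 7.78 to 16.6), and Carubv10012707m was listed at 0 in leaf 3 (others 10.9 FPKM or more). Carubv10016541m reached 0.0443 FPKM and Carubv10007897m 0.0359 FPKM in leaf 5, beside 0 in the other leaf libraries.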

How the results depend on the processing

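The number of members called between species was 33. It was 21 in a single fit of all 18 libraries, 19 of them among the 33 (13.3% of members tested, against 8.47% of all rows), and 26 to 40 with 1 library left out, the filter then being asked in 3 libraries. Without the 2 libraries that hold 0.5 it was 25 (15 higher, 10 lower), 17.9% of members tested against 13.8% of all rows. Under the other settings it stayed between 24 (filter of 5 FPKM) and 39 (no filter). The number called between tissues was 88. With 1 library left out it was 78 to 94, or 51.3% to 62.3% of members tested against 64.4% to 72.3% of all rows. Under the other planned settings it ran from 67 (filter of 5 FPKM, 64.4% against 70.2% of all rows) to 115 (quantile normalization). After quantile normalization 77 of the 88 were still called, 76.2% of members tested were called against 74.7% of all rows, and 43.5% of member calls were higher in buds, against 58.0% without it. The median difference over all rows was 0.13, and -0.02 after quantile normalization and 0.42 after upper quartile scaling. Counting identical rows once, an alternative added after the data were seen, gave 31 and 86. Those were 23.0% and 57.7% of members tested, and no share over all rows is given for it. With the place of origin as a term, also added later, 61 members were called between tissues (40.4%, against 48.2% of all rows). That difference rests on the 2 places with both tissues, and both 795-bp rows, Carubv10003938m, Carubv10007890m, Carubv10007976m and Carubv10012729m lost their tissue call.

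For Carubv10012733m, not called between tissues, the difference was 0.52 after quantile normalization and 0.24 after upper quartile scaling, both called and opposite to the main -0.07. The cause was not tested. Of the 37 members named by rule, the scaffold 26 rows, Carubv10012729m, Carubv10012776m and Carubv10016532m lost their species call in the fit of all 18 libraries, and Carubv10016541m, Carubv10012776m, Carubv10016532m and Carubv10003936m without the libraries holding 0.5. Carubv10007976m lost its tissue call after quantile normalization and Carubv10007890m after upper quartile scaling. Carubv10007905m, Carubv10016537m and Carubv10016552m gained one after quantile normalization.

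Over members that passed the species filter, medians were 9.85 FPKM in C. rubella buds, 9.2 in C. grandiflora buds and 7.12 in leaf, against 13.4, 13.1 and 12.4 for main scaffold rows that passed. Without rows sharing coordinates the C. rubella bud median was 3.47 FPKM in members, against 11.2 on the main scaffolds, whose C. grandiflora bud median was 10.8. With 1 bud library left out, member medians ranged from 3.83 to 4.05 in C. rubella and 3.24 to 3.71 in C. grandiflora buds, and main scaffold medians from 10.8 to 11 and 10.5 to 10.7. The share at 0.5 FPKM or less was 27.5%, 25.7% and 37.2% in members and 10.3%, 9.14% and 21.7% on the main scaffolds, in C. rubella buds, C. grandiflora buds and leaf. The bud shares leave out the libraries that hold 0.5 in place of 0. With these included they were 27.1% and 24.6% in members and 9.96% and 8.98% on the main scaffolds. In leaf, 29.8% of members and 16% of main scaffold rows were below 0.1 FPKM. Members without scaffold 15 were listed at 0 in 29.9% in leaf. Main scaffold rows with coordinates of their own were so in 8.1% in C. rubella buds and 15.7% in leaf. No setting brought members to the level of main scaffold rows. No paired analysis was possible because the labels give no replicate numbers, beyond the places of origin that 2 bud plants share with leaf plants. Unknown depth limits what can be said of rows near 0.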
